A study of Mus musculus with 2 samples.

Results

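Cathepsins and cystatins are described here as 10 genes, 8 lysosomal proteases (Ctsb, Ctsd, Ctsk, Ctsl, Ctss, Ctsz, Ctsc and Ctsh) and 2 secreted inhibitors of such proteases (Cst3 and Cst6), chosen by name from the 33696 genes measured in both libraries. All 10 were present in both count matrices. The data are single-cell RNA-seq of mouse aorta: 1 library from Kif13b-/- tissue and 1 from WT tissue, so 2 libraries in all and no replicate of either genotype. The title of the series places KIF13B, a kinesin motor protein, in macrophages that clear apoptotic cells through the receptor MERTK in atherosclerosis. The sample title says Kif13b-/-, while the genotype field of that sample speaks of a knock down. The sources used here give no strain, age, sex or diet, nor the number of animals pooled or the deleted part of Kif13b. The design text attached to the series is about cultured bone marrow macrophages and does not match these 2 aorta samples.

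Cathepsins are made as inactive precursors, sorted to the lysosome and activated by its acidity. Most are papain-like cysteine proteases, and cathepsin D is an aspartic protease. In macrophages they digest what the cell has eaten, apoptotic cells and lipoproteins included, and in antigen-presenting cells cathepsin S trims the invariant chain from MHC class II. Cystatins bind the active site of cysteine cathepsins, mainly outside the cell, and the balance between both is known to bear on breakdown of elastin and collagen in the arterial wall.

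The count files held 7766 Kif13b-/- and 21126 WT barcodes, above the 3000 cells that each library aimed for and above the 6000 loaded, with 64455003 and 93136569 UMIs. After filters and doublet removal 6887 Kif13b-/- and 16686 WT barcodes were analysed, with a median of 5760 and 2385 UMIs. The libraries shared 52 barcode sequences, 38 of them among the analysed barcodes, and without these no call of the 10 genes between genotypes changed. Kif13b itself was counted in both, at 43.8 CPM (UMIs of the gene per 1000000 UMIs) in Kif13b-/- and 70.5 CPM in WT barcodes. Because these are tags of 3' ends and the deleted part is not known, the count does not check the genotype. Aortic cell types were all found by their markers: smooth muscle-like (751 Kif13b-/- and 1859 WT barcodes), fibroblast-like (715 and 1632), endothelial-like (593 and 2353), macrophage-like (747 and 2088) and dendritic cell-like barcodes (74 and 184), beside chondrocyte-like barcodes (170 and 1515). Names were given from marker genes, and the thresholds for a name were set after the clusters had been seen. Several clusters had no name. One of 1288 Kif13b-/- and 4 WT barcodes was led by C1qb, Apoe and Trem2. Another held 459 Kif13b-/- and 375 WT barcodes (median 1730 and 1655 UMIs). It was led by Cd5l, Npy and Mmp12, with Gpnmb and Trem2 among its leading genes. Both clusters stand outside the main comparisons by cell group, but values over all analysed barcodes include them.

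Levels are CPM of UMIs summed over all barcodes of a cell group in 1 library. With 1 library per genotype no test between genotypes is possible. A gene is called higher or lower where the summed levels differ by a ratio of 1.5 or more and the gene has at least 20 UMIs over both sides, and intervals are 95% and cover counting error only, not the difference between animals. The 10 genes and the other genes of both families were left out of the clustering, so their levels did not draw the cell groups directly. Differences in depth, cell recovery and free RNA between the libraries cannot be told apart from genotype.

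The genes lie on several chromosomes of GRCm38 (GENCODE M21 annotation). Ctsb is on chromosome 14 at 63122462 to 63145923, and the targeted gene Kif13b begins 1501341 bases farther along that chromosome, with 15 protein-coding genes between them. Ctsk and Ctss are direct neighbours on chromosome 3, on the same strand, with a gap of 17423 bases and no other protein-coding gene between them. Ctsd (chromosome 7), Ctsl (chromosome 13), Ctsz and Cst3 (both chromosome 2), Ctsc (chromosome 7), Ctsh (chromosome 9) and Cst6 (chromosome 19) stand apart. Ctsb overlaps Fdft1 and Ctsz overlaps Nelfcd on the opposite strand. On the same strand Ctsd overlaps Gm49369, Ctsl overlaps Gm49230 and Ctss overlaps Hmgb1-ps5. The part of overlapping genes in the counts was not tested.

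Promoters, taken as 250 bases before to 50 bases after the gene start, were available for 7 of the 10 genes from RefSeq (GRCm38.p6). Positions are counted from the RefSeq start, which is 211 bases after the outermost GENCODE M21 start in Ctsd, 370 bases after it in Ctsl, 180 bases after it in Cst3 and 46 bases before it in Ctsk, so part or all of a window can lie inside the GENCODE gene. The E-box CACGTG, the core of the element that TFEB, TFE3 and MITF bind in lysosomal genes, was searched on both strands, and it reads the same on either. It occurs in 7.15% of 32851 promoters of this length. Among the 7 genes it occurs in Ctsd, at 245 and 98 bases before the RefSeq start, and in Ctsl, at 236 bases before the RefSeq start. The motif TCATGTG was found only in Ctss among these 7, 19 bases after the start (3.77% of all promoters), and GAGGAAGT, a motif of the myeloid factor PU.1, in Ctss at 2 bases before (on the other strand, so that it reads ACTTCCTC in the printed strand) and in Ctsc at 151 bases before the start (3.20%). None of the 3 motifs was found in the windows of Ctsk, Ctsz or Cst3. The promoters of Ctsd and Ctsl are printed because both carry the E-box and because these genes stood far above other macrophages in one macrophage state, and those of Ctsk and Ctss because these neighbours differed across cell groups; capitals mark the motifs. The windows are chr7:142387778-142388077 (minus strand), chr13:64370471-64370770 (minus strand), chr3:95498960-95499259 (plus strand) and chr3:95526536-95526835 (plus strand).
Ctsd promoter: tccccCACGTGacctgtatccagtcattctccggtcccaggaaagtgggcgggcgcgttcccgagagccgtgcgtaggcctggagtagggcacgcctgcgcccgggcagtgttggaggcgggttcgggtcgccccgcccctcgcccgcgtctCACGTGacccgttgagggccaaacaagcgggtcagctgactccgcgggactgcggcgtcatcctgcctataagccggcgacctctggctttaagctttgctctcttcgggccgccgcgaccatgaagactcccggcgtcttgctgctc
Ctsl promoter: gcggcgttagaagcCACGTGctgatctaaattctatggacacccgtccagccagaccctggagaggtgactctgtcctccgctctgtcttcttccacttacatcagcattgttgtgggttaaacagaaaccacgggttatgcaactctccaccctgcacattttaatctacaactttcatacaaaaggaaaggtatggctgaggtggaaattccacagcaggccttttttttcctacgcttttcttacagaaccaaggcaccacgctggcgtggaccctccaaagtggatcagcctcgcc
Ctsk promoter: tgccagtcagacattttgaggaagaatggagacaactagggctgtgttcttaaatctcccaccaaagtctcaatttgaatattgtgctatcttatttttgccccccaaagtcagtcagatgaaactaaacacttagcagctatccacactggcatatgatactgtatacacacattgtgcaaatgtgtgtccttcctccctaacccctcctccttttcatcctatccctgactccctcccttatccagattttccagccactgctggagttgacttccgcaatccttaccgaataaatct
Ctss promoter: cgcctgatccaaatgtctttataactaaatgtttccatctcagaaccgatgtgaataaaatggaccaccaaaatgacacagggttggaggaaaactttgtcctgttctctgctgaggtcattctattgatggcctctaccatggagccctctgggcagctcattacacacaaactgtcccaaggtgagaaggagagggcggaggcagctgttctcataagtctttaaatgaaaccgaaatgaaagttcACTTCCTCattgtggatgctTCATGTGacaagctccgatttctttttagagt
Of the 300 bases, 67.3% are G or C in Ctsd, against 43.7% in Ctsk. A match describes letters in the window and is no sign of binding.

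**Figure D1:**
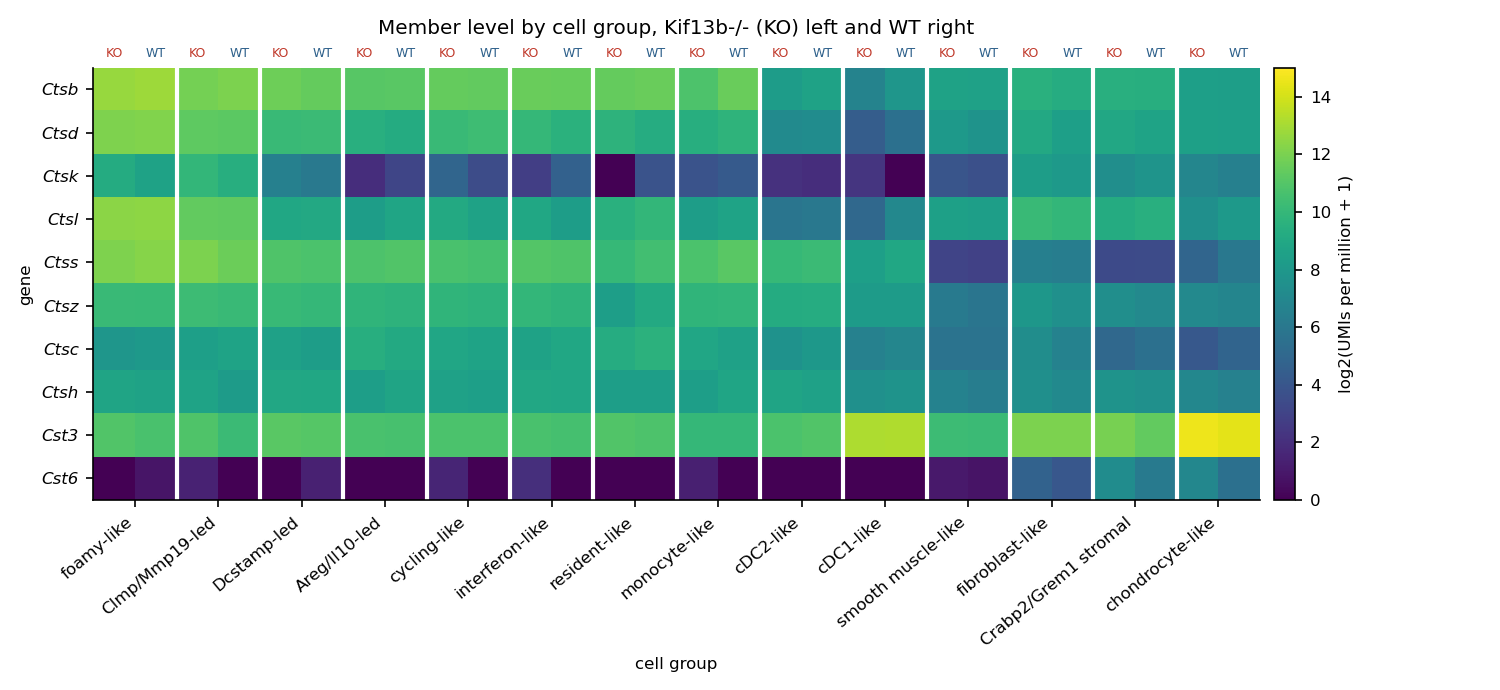
Level of each gene, as log2(CPM + 1), in 14 cell groups, with the Kif13b-/- library left and the WT library right in each pair of columns. Ctsb, Ctsd and Ctsl are brightest in the foamy-like state at the left, Cst3 in chondrocyte-like and cDC1-like barcodes, and Cst6 in Crabp2/Grem1 stromal and chondrocyte-like barcodes.

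The macrophage-like class was named from 2 clusters and is not made of macrophages alone. When the myeloid clusters were clustered again, 285 of its 747 Kif13b-/- and 951 of its 2088 WT barcodes fell into sub-clusters that the markers named smooth muscle, fibroblast, endothelial or another non-myeloid type, with 18.7% and 27.6% of the UMIs of the class. Over the whole class, as a mixture, Ctsk, Ctsl and Cst6 were higher in the Kif13b-/- library, and the other 7 genes lay within the ratio of 1.5. Ctsk, the collagen- and elastin-degrading cathepsin known from osteoclasts, had 297 CPM in the Kif13b-/- and 140.0 CPM in the WT class, a log2 ratio of 1.09 (0.99 to 1.18). Ctsl, an endopeptidase, had 2146 CPM in the Kif13b-/- and 1360.2 CPM in the WT class, a log2 ratio of 0.66 (0.63 to 0.69). The Ctsl call held in 8 of 17 other settings, and its direction turned to -0.11 where unnamed clusters rich in macrophage genes were counted in. These are 3 of 10 genes called, beside 17.4% of the genes counted in the class. Log2 ratios of Ctsb, Ctsd and Ctss were 0.34, 0.49 and 0.35. Ctsc had nearly the same level, 338 CPM in Kif13b-/- and 339 CPM in WT. Cst6 rested on 65 Kif13b-/- and 58 WT UMIs, of which 62 and 53 lay in the sub-clusters with a non-myeloid name and 3 in each library in the deep macrophage barcodes described next.

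The 2 clusters of the class differ in depth. The shallow one (377 Kif13b-/- and 1422 WT barcodes, median 2543 and 1417 UMIs) had 8594 CPM in Kif13b-/- and 7539 CPM in WT summed over 9 smooth muscle markers, all 9 of them detected, against 126 and 129 CPM in the deep macrophage-like sub-clusters. With only barcodes of at most 0.2% stromal marker UMIs, fewer of the genes were called in the whole class, as given in the closing section. The part of these markers in the ratios of the class was not tested beyond that setting. All later statements on states therefore use the deep barcodes (348 Kif13b-/- and 588 WT, median 14941.5 and 9001 UMIs). Among these, Ctsk alone was called, at 351 CPM in Kif13b-/- and 168 CPM in WT (log2 1.07, 0.96 to 1.18), 1 of 9 genes counted, beside 14.5% of all genes. Ctsl had a log2 ratio of 0.53, Ctsd 0.41, Ctsb and Ctss 0.22 each, Ctsz 0.19 and Ctsc -0.18. Ctsk and Ctsl had the highest ratios and Ctsc the lowest both here and in the whole class. Where each barcode was instead named by its highest marker score, no ratio of Ctsk or Ctsl in the class reached 1.5, with log2 values of 0.29 for Ctsk and 0.015 for Ctsl.

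The foamy or lipid-associated state (103 Kif13b-/- and 85 WT barcodes), named from markers such as Trem2, Gpnmb, Spp1 and Lpl, had the highest levels of Ctsb, Ctsd and Ctsl of all 10 myeloid groups in both libraries. The shallow unnamed cluster led by Cd5l, Npy and Mmp12 is not counted in this state. Ctsl had 5430.4 CPM in Kif13b-/- and 5557 CPM in WT foamy barcodes, against 854 and 731 CPM in the other deep macrophages of the same libraries. The log2 ratio of foamy over other macrophages was 2.67 in the Kif13b-/- library and 2.93 in the WT library. Ctsd, the aspartic protease, reached 4407 and 4492 CPM in foamy barcodes, against 1265 and 1101 CPM in other macrophages, a log2 ratio of 1.80 in the Kif13b-/- library and 2.03 in the WT library. Ctsb, an endo- and exopeptidase, had 6628 and 7241 CPM in foamy barcodes, against 3070.5 and 2828 CPM in other macrophages, a log2 ratio of 1.11 in the Kif13b-/- library and 1.36 in the WT library. For both genotypes the foamy levels of these 3 genes lie above the levels in other macrophages beyond counting error. Ctsk (1.504 in the Kif13b-/- library and 1.91 in the WT library) and Ctss (0.97 in the Kif13b-/- library and 1.38 in the WT library) were also higher in the foamy state.

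Thus 5 of 9 genes were higher and 1 was lower in foamy barcodes in each library, beside 37.8% of genes called in the Kif13b-/- and 41.6% in the WT library. The lower one was Ctsc, the dipeptidyl peptidase that matures granule serine proteases. It had 233 CPM in Kif13b-/- and 262 CPM in WT foamy barcodes, against 455 and 464 CPM in other macrophages. The remaining 3 genes stayed within the ratio in both libraries: the carboxypeptidase Ctsz (0.18 and 0.27), the aminopeptidase Ctsh (-0.05 and -0.07) and Cst3 (0.00 and -0.03). Foamy barcodes were deeper (median 19082 Kif13b-/- and 12853 WT UMIs) than the other deep macrophages (13745 and 8415), and the part of depth in these ratios was not tested. Markers of other cell types were low on both sides, with 124 and 117 CPM of smooth muscle markers in foamy and 127 and 132 CPM in other macrophages.

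**Figure D2:**
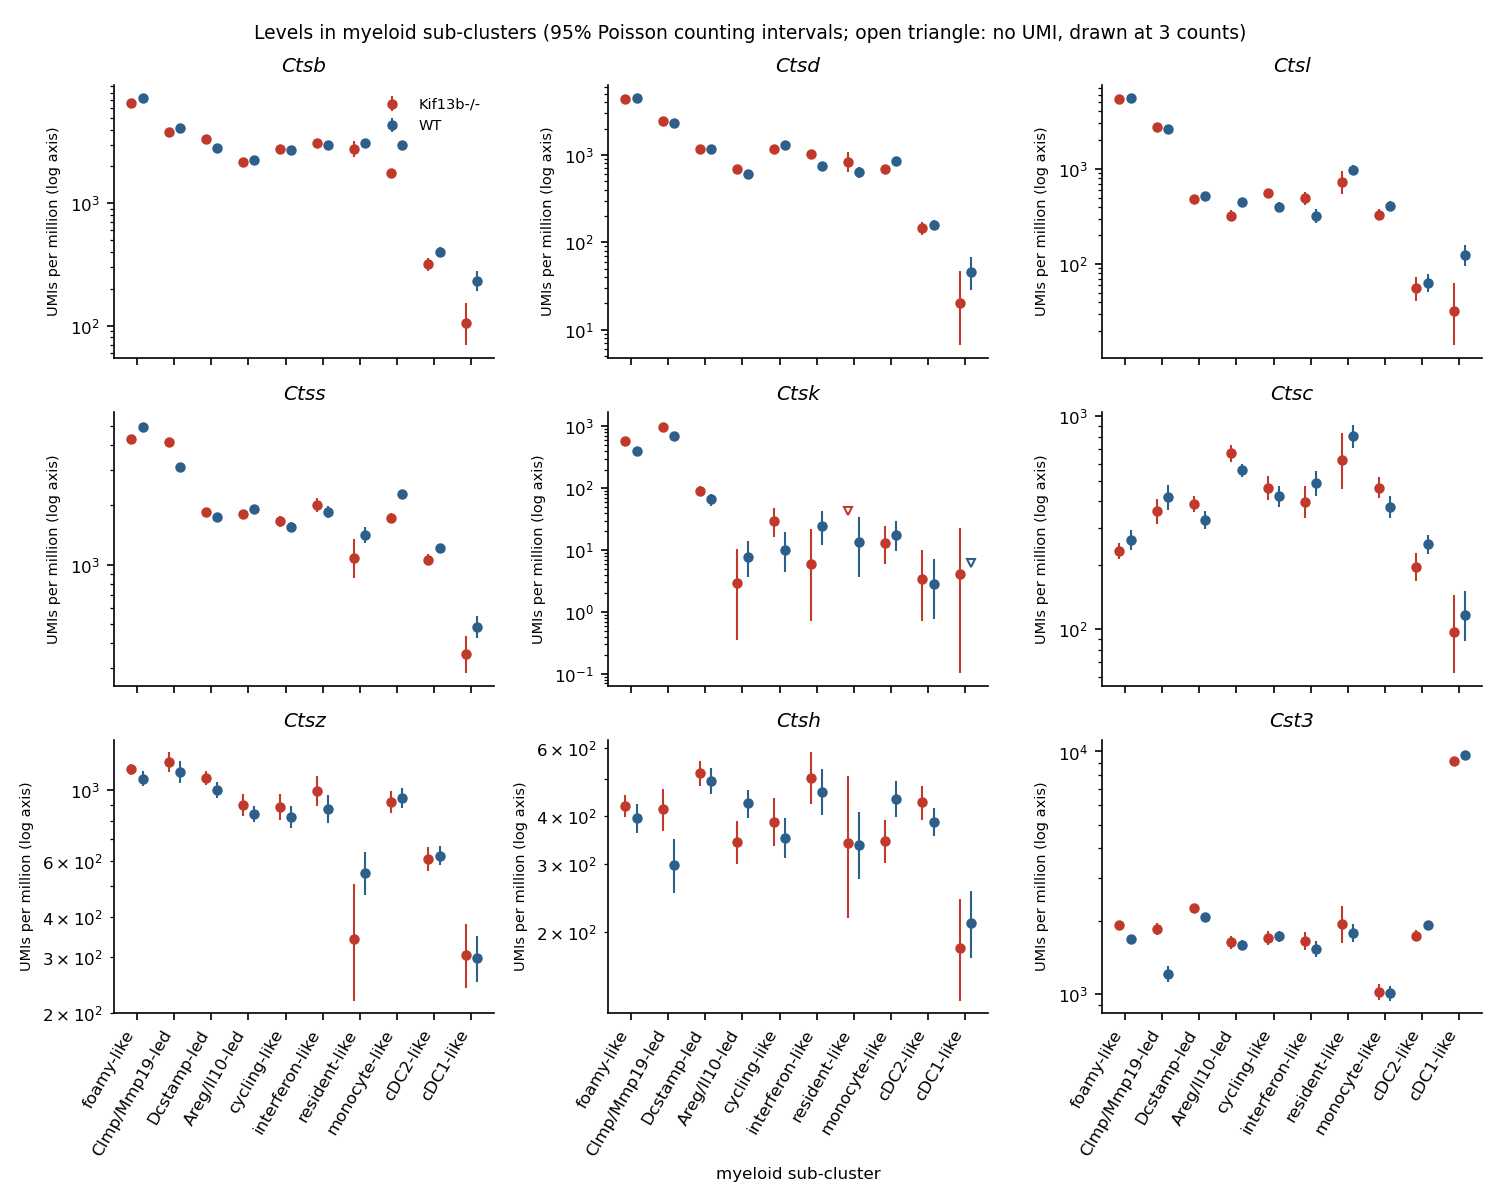
Level of 9 genes, in CPM on a log axis, in 10 myeloid sub-clusters, with Kif13b-/- points left of WT points, bars for 95% counting intervals and open triangles for no UMI. Ctsb, Ctsd and Ctsl are highest in the foamy-like state in both libraries, Ctsk in the Clmp/Mmp19-led sub-cluster, and Cst3 in cDC1-like barcodes.

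Of 32 genes for lysosomal sorting and lysosomal enzymes, 10 were higher and 1 lower in foamy than in other macrophages of the Kif13b-/- library, and 15 were higher and 1 lower in the WT library, with a median log2 ratio of 0.43 and 0.48. Over all genes 21% were higher and 16.8% lower in the Kif13b-/- library, and 20.2% and 21.4% in the WT library. Psap, the saposin precursor, had 0.66 and 1.05 in the Kif13b-/- and WT library, the lysosomal membrane protein gene Cd63 0.72 and 1.05, the lysosomal enzyme gene Hexa 0.70 and 0.80, and Lipa, the lysosomal acid lipase, 0.67 and 0.85. Cd63 is itself one of the markers that named the state, so its higher level is part of the naming. The lower gene in both libraries was Mitf (-0.73 and -0.75), a transcription factor of the TFEB family. Of 17 genes of the proton pump that acidifies the lysosome, 6 and 7 were higher and none lower, with medians of 0.40 and 0.37, and Atp6v0d2, itself one of the markers that named the state, stood at 2.20 and 3.33. Other pump subunits called in both were Atp6v0e (0.59 and 0.90), Atp6v1g1 (0.59 and 0.90) and Atp6v1b2 (0.78 and 0.88). Median log2 ratios over all genes were 0.08 and 0.03. Unlike the 10 genes, these lists were not kept out of the clustering, so their counts are a description of the state.

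The class II genes H2-Aa (-2.85 and -3.79), H2-Ab1 (-2.83 and -3.56) and H2-Eb1 (-2.88 and -4.20) were lower in foamy than in other macrophages of the Kif13b-/- and WT libraries, as was Cd74, the invariant chain (-2.66 and -3.16), while Ctss was higher. A list of 14 class II and matrix genes includes Cd74. In the Kif13b-/- library 11 of these were counted, 2 higher (Fn1 and Eln) and 6 lower. In the WT library 12 were counted, none higher and 9 lower. Among other cathepsins and legumain 3 of 4 counted genes were higher in each library, Ctsa (0.67 and 0.66) and Ctso (1.10 and 1.02) in both, Ctsf in the Kif13b-/- library (0.94) and Lgmn, the protease legumain that processes cathepsin precursors, in the WT library (0.95). Of other inhibitors, Serpinb6a was higher in both libraries (1.14 and 1.18) and Cstb, an intracellular cystatin, was within the ratio (0.01 and 0.17). As above, 37.8% and 41.6% of all genes were called in this comparison, and the list counts are read beside these shares. Of osteoclast genes, 1 of 7 counted genes was higher and 3 were lower in the Kif13b-/- library, and 2 were higher and 3 lower in the WT library. Atp6v0d2 was higher in both, with Ostm1 in WT (0.99). Tnfrsf11a, the receptor RANK (-0.97 and -1.11), and the fusion gene Dcstamp (-2.55 and -4.01) were lower in both, with Acp5 in Kif13b-/- (-0.98) and Nfatc1 in WT (-0.75).

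Ctsk was concentrated in 2 macrophage groups. Its highest level was in a sub-cluster led by Clmp, Mmp19 and Pdpn, with Ctsk itself high among its leading genes (29 Kif13b-/- and 36 WT barcodes), with 985 CPM in Kif13b-/- and 689 CPM in WT, and the foamy state came next with 588 and 394 CPM. The Clmp-led sub-cluster had 6 of 13 foamy markers raised, too few for that name, and is counted with the other deep macrophages. Barcodes led by Dcstamp had 90.0 and 65.7 CPM, and in the other 5 macrophage and monocyte groups Ctsk lay between 0 and 29.0 CPM. In the Clmp-led sub-cluster Ctsd (2442 and 2348 CPM), Ctsl (2744 and 2614 CPM) and Ctsb (3806 and 4132 CPM) were the second highest of the 10 myeloid groups in both libraries. A UMI of Ctsk was found in 59.2% of Kif13b-/- and 41.2% of WT foamy barcodes, and in 24.5% and 16.5% after thinning each barcode to 1000 UMIs. In the Clmp-led sub-cluster the shares were 48.3% and 36.1%. In the deep macrophages outside both groups they were 6.94% and 8.35%, beside 10.1% and 8.90% in T cell-like barcodes (median 5376 and 2036 UMIs), which should lack the gene. Shares outside both groups are thus not told apart from background. The UMIs outside both groups were not evenly spread. Of 137 Kif13b-/- and 117 WT Ctsk UMIs there, 118 and 84 lay in the Dcstamp-led barcodes. The osteoclast gene Mmp9 was at or under 0.567 CPM in foamy and in other deep macrophages of both libraries, and Calcr, the calcitonin receptor of osteoclasts, had no UMI in them. Other osteoclast genes were counted in the Clmp-led sub-cluster. Acp5 had 499 CPM in Kif13b-/- and 285 CPM in WT, and Tnfrsf11a 131 and 83.8 CPM. Dcstamp had 61.4 and 61.4 CPM there, and Nfatc1 53.1 and 59.6 CPM. Ocstamp, Oscar, Itgb3 and Car2 had no UMI there in either library.

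A few barcodes carried much of Ctsl and Ctsk. In the Kif13b-/- foamy state 5 of 103 barcodes held 6550 of 11654 Ctsl UMIs, with 1150 to 1827 UMIs each, and the sixth held 360. In the WT foamy state 1 of 85 barcodes held 1347 Ctsl UMIs and the top 5 held 2940 of 7242. Without the 5 highest barcodes of each library foamy Ctsl had 2586 CPM in Kif13b-/- and 3651 CPM in WT (log2 -0.50), and the foamy state stayed above other macrophages, by 2.17 in the Kif13b-/- and 2.73 in the WT library. The highest 1% of deep macrophage barcodes held 36.8% of Ctsl UMIs in Kif13b-/- and 33.0% in WT, and 32.1% and 49.1% of Ctsk UMIs, but 7.21% and 8.29% of Ctsb UMIs. High Ctsl and high Ctsk only partly met in 1 barcode. Of the 5 Kif13b-/- barcodes highest in Ctsl, 3 held 0, 3 and 4 Ctsk UMIs and the others 88 and 112. The 3 Kif13b-/- barcodes highest in Ctsk, with 233, 174 and 120 UMIs, held 20, 31 and 27 Ctsl UMIs.

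**Figure D3:**
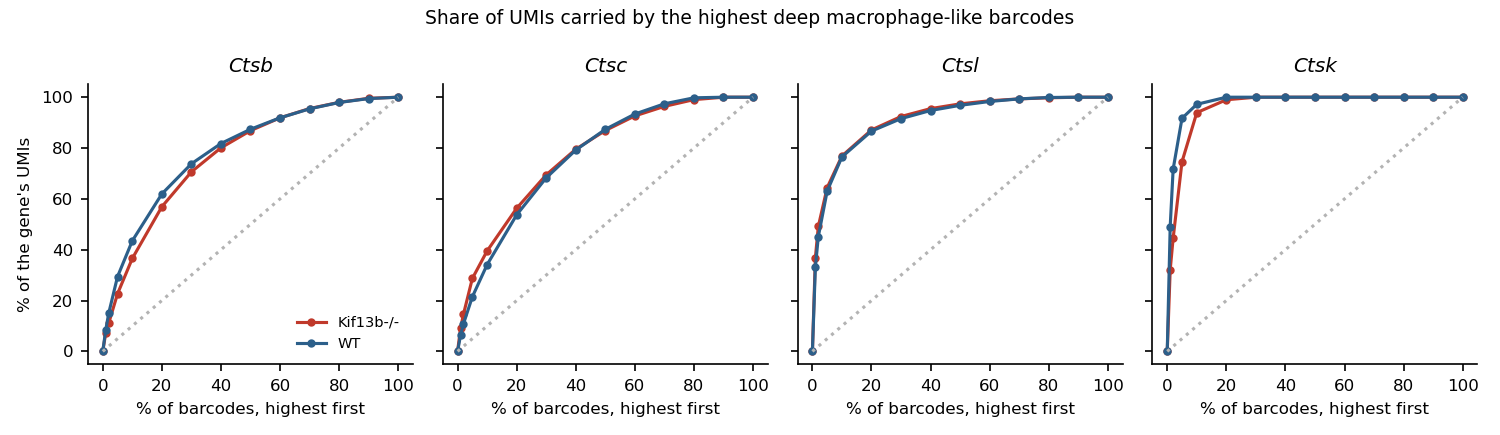
Cumulative share of the UMIs of Ctsb, Ctsc, Ctsl and Ctsk over deep macrophage-like barcodes ranked from highest to lowest, for 348 Kif13b-/- and 588 WT barcodes. The highest 10% of barcodes hold 36.5% and 43.5% of Ctsb UMIs but 93.9% and 97.2% of Ctsk UMIs in Kif13b-/- and WT, and the dotted line marks an even spread.

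Other states had their own leading cathepsins. Ctsc was highest in resident-like macrophages in the WT library (807 CPM, 47 barcodes) and had 625 CPM there in the Kif13b-/- library, with 8 barcodes only. In a sub-cluster led by Areg, Il10 and Irf4 (62 Kif13b-/- and 163 WT barcodes) it had 669.6 CPM in Kif13b-/- and 558 CPM in WT. The same sub-cluster had the lowest Ctsb of the 7 deep macrophage groups, 2186 and 2253 CPM. Ctsz had 341 and 550.2 CPM in resident-like macrophages and 822 to 1221 CPM in the other 6 groups. Ctsh ran from 298 to 516 CPM over the 7 groups. Ctss was lowest in resident-like macrophages (1079 and 1414 CPM) and highest in foamy ones (4319 and 4977 CPM). Monocyte-like barcodes (73 Kif13b-/- and 109 WT) had 1762 CPM of Ctsb in Kif13b-/- and 2991 CPM in WT, a log2 ratio of -0.76 and the 1 gene of 9 called there (22.1% of all genes). Interferon-like macrophages (30 Kif13b-/- and 48 WT barcodes) had 2002 and 1847 CPM of Ctss, and cycling-like ones (20 and 78) had 1651 and 1555 CPM.

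None of 9 genes was called between Kif13b-/- and WT in the foamy state, beside 17.2% of all genes. Foamy Ctsb was 6628 CPM in Kif13b-/- and 7241 CPM in WT (log2 -0.13), Ctsd 4407 and 4492 CPM (-0.03), and Ctsl 5430.4 and 5557 CPM (-0.03). Foamy Ctsk, at 0.58 (0.43 to 0.73), lay just under the ratio. Without the 5 highest barcodes of each library its foamy level was 340 CPM in Kif13b-/- and 175 CPM in WT, past the ratio of 1.5. In the other deep macrophages Ctsk was called, with 207 CPM in Kif13b-/- and 104 CPM in WT (log2 0.99), 1 of 9 genes beside 14.9% of all genes. The Clmp-led sub-cluster, with 29 of 245 and 36 of 503 barcodes, held 594 of the 731 Kif13b-/- and 370 of the 487 WT Ctsk UMIs of these macrophages. Within it the log2 ratio was 0.52, under the ratio of 1.5, and without it the levels were 46.9 CPM in Kif13b-/- and 28.4 CPM in WT (0.72), on 137 and 117 UMIs. In the other deep macrophages as 1 group, Ctsb, Ctsd, Ctsl and Ctss had log2 ratios of 0.12, 0.20, 0.23 and 0.21.

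The libraries differed in their mix of states. Foamy barcodes made up 29.6% (24.8 to 34.7, exact binomial interval) of deep macrophages in Kif13b-/- and 14.5% (11.7 to 17.6) in WT, and 37.8% and 21.9% of their UMIs. Cycling-like barcodes were 5.75% and 13.3%, and resident-like ones 2.30% and 7.99%. When the Kif13b-/- level of each of 7 sub-clusters was weighted by that sub-cluster's share of WT UMIs, the log2 ratio of Kif13b-/- over WT was -0.02 for Ctsl (0.53 unweighted), 0.01 for Ctsd (0.41 unweighted), -0.03 for Ctsb (0.22 unweighted) and -0.03 for Ctss (0.22 unweighted). Ctsk stood at 0.53 when weighted and 1.07 unweighted. Across 6 other settings the weighted ratio ran from -0.02 to 0.21 for Ctsl, from 0.02 to 0.17 for Ctsd and from 0.53 to 0.90 for Ctsk. Weighted ratios of Ctsz, Ctsc, Ctsh and Cst3 were 0.09, 0.05, 0.04 and 0.14. This weighting was chosen after the levels by state had been seen. With 1 library each, the recovery of states during preparation cannot be told apart from genotype.

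**Figure D4:**
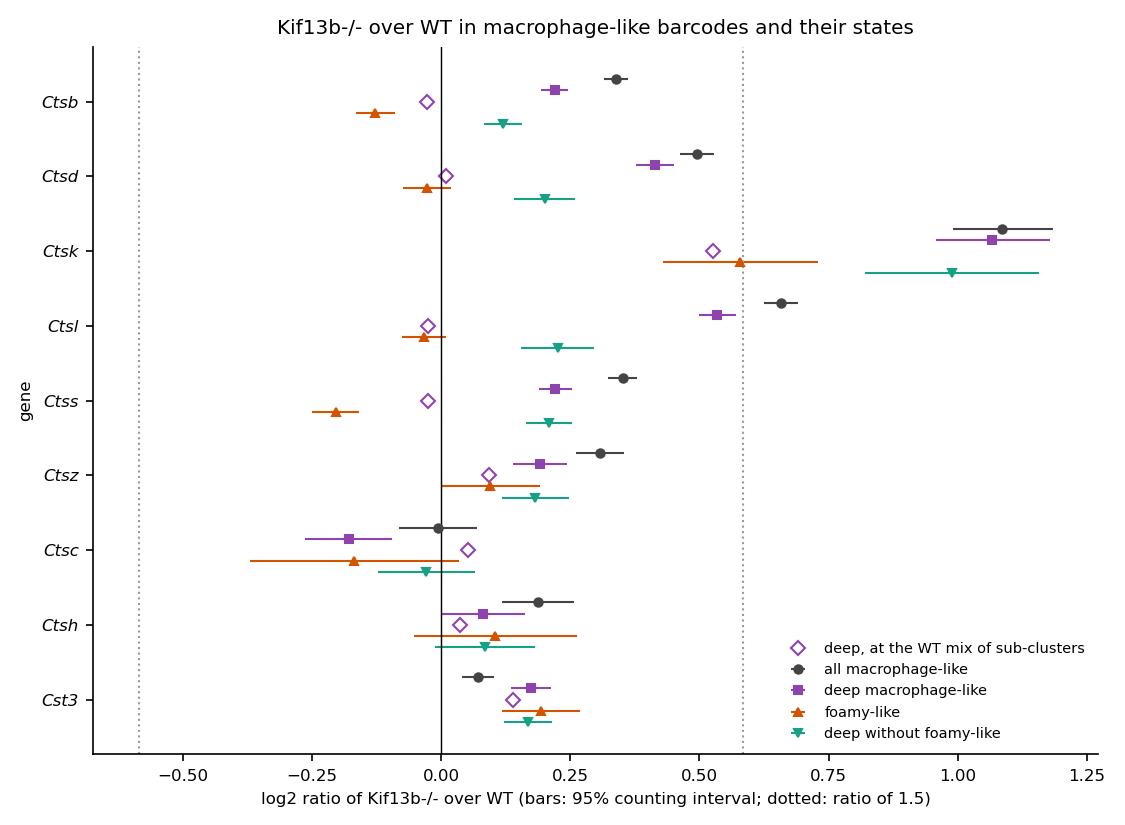
Log2 ratio of Kif13b-/- over WT for 9 genes in all macrophage-like barcodes, the deep ones, the deep ones at the WT mix of sub-clusters (open diamonds), the foamy-like state and the deep ones without it, with 95% counting intervals. Ctsb, Ctsd, Ctsl and Ctss move to between -0.03 and 0.01 at the WT mix. Ctsk falls too, from 1.07 in the deep barcodes to 0.53 at the WT mix.

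In the macrophage-like class as a whole, 5.11% of all genes were higher and 12.2% lower in Kif13b-/-. Of 32 lysosomal genes 2 were higher in Kif13b-/- and none lower, Naglu, a heparan sulfate-degrading enzyme (log2 0.77), and Tfeb, a regulator of lysosomal genes (0.64), with a median of 0.16 beside -0.03 over all genes. Of 17 proton pump genes Atp6v0d2 was higher (0.88). None of 6 counted other cathepsins was called. Of 6 counted other inhibitors, Stfa3 was higher and Serpinb1a and Cstdc4 were lower, on 0 to 25 UMIs in Kif13b-/- and 18 to 89 UMIs in WT. Of the 14 class II and matrix genes 7 were lower and none higher. Among the lower ones Col3a1 (-1.19), Col1a1 (-0.87), Col1a2 (-0.85) and Eln (-0.90) had the most UMIs. These 4 are matrix genes of stromal cells, and summed fibroblast markers in the same barcodes were 163 CPM in Kif13b-/- and 249 CPM in WT, whose part in the result was not tested.

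In the foamy state 7 of 12 counted class II and matrix genes were higher in Kif13b-/- and 1 was lower, beside 11.5% and 5.71% of all genes. None of the 32 lysosomal or 17 proton pump genes was called. Class II genes were among them, H2-Aa with 282 CPM in Kif13b-/- and 150.4 CPM in WT (log2 0.91), H2-Eb1 with 277 and 127 CPM (1.13), and H2-Ab1 with 243 and 143 CPM (0.76). The 1 lower gene was Col2a1, on 10 Kif13b-/- and 24 WT UMIs. Fn1, fibronectin, had 1224 and 753 CPM (0.70). Ctss, which acts on the invariant chain, had 4319 CPM in Kif13b-/- and 4977 CPM in WT in the same barcodes.

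Dendritic cell-like barcodes had lower levels of most of these cathepsins. Relative to deep macrophages, Ctsl had a log2 ratio of -5.67 in the Kif13b-/- library and -4.49 in the WT library, Ctsd -4.39 in the Kif13b-/- library and -3.85 in the WT library, Ctsb -4.03 in the Kif13b-/- library and -3.40 in the WT library and Ctss -1.73 in the Kif13b-/- library and -1.33 in the WT library. Ctsk (4 UMIs in each library), Ctsz and Ctsc were lower too, which makes 7 of 9 genes lower and 1 higher in each library, beside 54.2% and 50.9% of genes called. Ctsh was within the ratio (-0.20 and -0.27). Cst3 was the 1 gene higher, with 3348 CPM in Kif13b-/- and 3919 CPM in WT, against 1925 and 1707 CPM in deep macrophages. Without the 5 highest barcodes of each library the Kif13b-/- ratio was 0.27 and no longer called, against 0.80 with them, and it was 0.51 both with equal weight per barcode and after thinning. Of 32 lysosomal genes 26 were lower and none higher in the Kif13b-/- library, and 23 were lower and 1 higher, Sort1 (1.08), in the WT library. Psap was lower in both (-1.12 and -0.97). Of the class II and matrix genes 6 were higher in each library, Cd74 (2.04 and 1.64), H2-Eb1 (2.76 and 2.24), H2-Aa (2.51 and 2.15) and H2-Ab1 (2.69 and 2.32) among them. Fn1 was lower in both (-2.73 and -2.59), with Col1a1 and Eln lower in Kif13b-/- as well.

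Dendritic cell subsets differed in the inhibitor and in Ctss. In cDC1-like barcodes, the cross-presenting subset (14 Kif13b-/- and 29 WT barcodes), Cst3 had 9097 and 9647 CPM, and in cDC2-like barcodes (60 and 155) it had 1742 and 1926 CPM, beside the 1925 and 1707 CPM of deep macrophages. Ctss had 353 and 485 CPM in cDC1-like and 1059 and 1209 CPM in cDC2-like barcodes. Ctsz (304 and 297 against 609 and 622 CPM) and Ctsh (182 and 211 against 434 and 386 CPM) were also lower in cDC1-like barcodes of both libraries. Between genotypes Ctsl alone was called in dendritic cells, lower at 50.5 CPM in Kif13b-/- and 79.3 CPM in WT (log2 -0.64), 1 of 8 genes beside 18.7% of all genes. It rested on 57 Kif13b-/- and 150 WT UMIs, 1 WT barcode held 54 of them, and without the 5 highest barcodes of each library the ratio was -0.31. With only barcodes of at least 2000 UMIs kept and clustered, it was 0.45, so its direction turned.

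All 10 genes were higher in fibroblast-like than in smooth muscle-like barcodes in both libraries, beside 47.2% of genes called in Kif13b-/- and 45.9% in WT. Ctsk had 325 CPM in Kif13b-/- and 261 CPM in WT fibroblasts, against 14.3 and 11.5 CPM in smooth muscle. Ctsl had 1132 and 973 CPM in fibroblasts, against 368 and 337 CPM in smooth muscle, and thus a higher level in fibroblasts than in the deep macrophages outside the foamy state. Ctss, the myeloid cathepsin, had 86.5 and 82.5 CPM in fibroblasts, against 7.47 and 6.41 CPM in smooth muscle. Where barcodes were named by marker score, its log2 ratio was 0.39 in the Kif13b-/- library and 0.41 in the WT library, against 3.52 and 3.68 here, and in WT Ctsc (0.17) and Ctsb (0.53) lost their calls too. In a stromal cluster led by Crabp2, Slurp1 and Grem1 (545 Kif13b-/- and 1041 WT barcodes), which holds too few markers for a name and was picked out after its Cst6 level was seen, Ctsk had 166 CPM in Kif13b-/- and 218 CPM in WT (log2 -0.39). Set against smooth muscle, 8 of 10 genes were higher and 1 lower there in the Kif13b-/- library (41.1% of all genes called) and 9 were higher in the WT library (41.8%).

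Between genotypes no gene of 9 was called in smooth muscle-like barcodes (10.2% of all genes). In fibroblast-like barcodes 2 of 10 genes were higher in Kif13b-/-, beside 16.1%: Ctsc, with 162 CPM in Kif13b-/- and 98.8 CPM in WT (log2 0.72), and Cst6, with 25.5 and 15.6 CPM (0.70). In chondrocyte-like barcodes 1 of 10 was higher, Cst6, and 3 were lower, Ctss (-1.12), Ctsc (-0.69) and Ctsl (-0.62), beside 21.6%. The class holds a shallow cluster of 15 Kif13b-/- and 493 WT barcodes (median 2581 and 2175 UMIs). In the deep chondrocyte-like cluster alone (155 and 1022 barcodes) no gene was lower: Ctsl had a log2 ratio of -0.33, Ctsc -0.27, and Ctss was higher at 1.08, with 22.8 CPM in Kif13b-/- and 10.9 CPM in WT, beside 21.1% of all genes.

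Cst3, cystatin C, had its highest class level in chondrocyte-like barcodes. There it had 25456 CPM in Kif13b-/- and 21684 CPM in WT (log2 0.23), against 1248 and 1173 CPM in smooth muscle, 4226 and 4203 CPM in fibroblasts and 3936 and 2690.1 CPM in the Crabp2-led cluster. The log2 ratio of chondrocyte-like over smooth muscle-like was 4.35 in the Kif13b-/- library and 4.21 in the WT library. In that comparison 5 genes were higher and 2 lower in the Kif13b-/- library, and 6 were higher and 1 lower in the WT library, beside 56.9% and 58% of all genes. Chondrocyte-like barcodes held 24.6% of all Cst3 UMIs in Kif13b-/- and 63.8% in WT, with 2.47% and 9.08% of barcodes. Over all analysed barcodes Cst3 had 4185 CPM in Kif13b-/- and 5722 CPM in WT (log2 -0.45), while the ratio lay between 0.01 and 0.23 in the macrophage-like class, smooth muscle, fibroblasts and chondrocytes, at 0.55 in the Crabp2-led cluster and at -0.23 in dendritic cells. Among T cell-like barcodes the level differed between clusters. A shallow T cell-like cluster (45 Kif13b-/- and 485 WT barcodes) had 11054 and 1984 CPM, and a deeper one (93 and 178) had 237 and 208 CPM.

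Cst6, cystatin E/M, an inhibitor of legumain and cathepsin L known from skin, was higher in Kif13b-/- in several stromal groups. In the Crabp2-led cluster it had 154 CPM in Kif13b-/- and 68.3 CPM in WT (log2 1.18, 1.05 to 1.31; 1336 and 740 UMIs), 1 of 10 genes called there beside 10.5%. With clusters built from barcodes of at least 2000 UMIs, the cluster that shared most barcodes with it had 46.2 CPM in Kif13b-/- and 45.3 CPM in WT. A UMI was found in 43.7% of Kif13b-/- and 26.2% of WT barcodes, and in 11.8% and 4.75% after thinning to 1000 UMIs. In smooth muscle-like barcodes of like depth (median 11494 and 6708 UMIs, against 11963 and 7912) the shares were 1.07% and 0.43%. Endothelial-like barcodes had 23.9 CPM in Kif13b-/- and 14.3 CPM in WT, with 3 of 10 genes higher there, Cst6 among them, beside 14.4% of all genes called. Chondrocyte-like barcodes had 120.0 CPM in Kif13b-/- and 45.3 CPM in WT (log2 1.41, 1.20 to 1.61). In chondrocytes 5 of 170 Kif13b-/- barcodes held 140 of 290 Cst6 UMIs, and without the 5 highest barcodes of each library the levels were 67.8 CPM in Kif13b-/- and 38.6 CPM in WT (log2 0.82). The Crabp2-led cluster held 48.2% of Kif13b-/- and 38.8% of WT Cst6 UMIs. Over all analysed barcodes Cst6 had 46.3 and 23.3 CPM (log2 0.99), and with Ctsd and Ctsz it made 3 of 10 genes higher, beside 12.7% of genes. Without the unnamed cluster of 1288 Kif13b-/- and 4 WT barcodes Cst6 alone was called (0.92), and Ctsd (0.51) and Ctsz (0.53) were within the ratio. No Cst6 UMI was seen in dendritic cell-like barcodes of either library (74 and 184 barcodes), where 3 counts, the most that a count of 0 allows, would be 2.66 and 1.59 CPM.

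**Figure D5:**
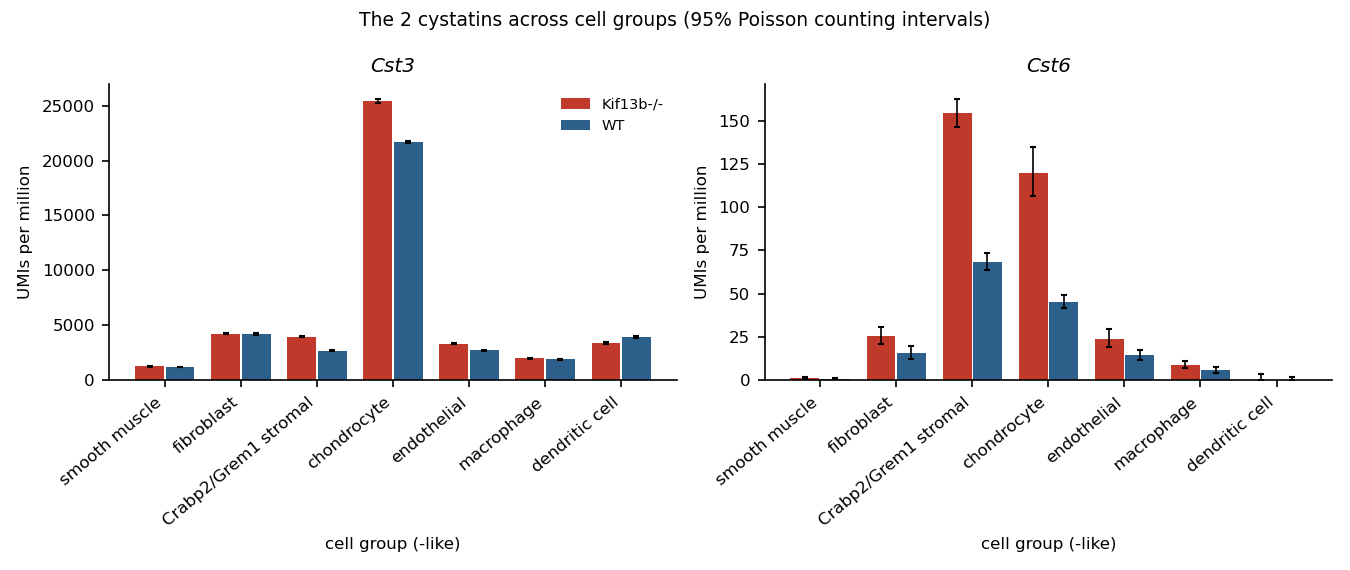
Level of Cst3 (left) and Cst6 (right) in CPM in 7 cell groups, Kif13b-/- bars left of WT bars, with 95% counting intervals. Cst3 is highest in chondrocyte-like barcodes of both libraries, and Cst6 is higher in Kif13b-/- than in WT in the Crabp2/Grem1 stromal, chondrocyte-like and fibroblast-like groups.

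Across 65 sums of a cluster in a library, each gene was compared with 8344 genes on log2(CPM + 1). The points share 2 libraries and differ in depth, and the correlations are a description. Closest to Ctsb were Psap (0.85), Lgmn (0.84) and Grn (0.82), and Ctsd was close to Hexa (0.78) and Creg1 (0.75). Ctsz was closest to Ftl1 (0.92) and Cstb (0.87), Ctsh to Lgmn (0.84) and Emp3 (0.72), and Ctsc to Dtnbp1 (0.75), Pld4 (0.70) and Psap (0.68). Ctss followed the myeloid genes Lyz2 (0.94), Tyrobp (0.92) and Cd68 (0.90). Its chromosomal neighbour Ctsk had a correlation of 0.18 with it and was closest to Cd63 (0.77), Col14a1 (0.76) and Timp2 (0.74), and Ctsl to Cd63 (0.79), Timp2 (0.78) and Lamp1 (0.77). Within the group Ctsb and Ctsd were most alike (0.87), and Ctsk and Ctsl reached 0.70. Cst3 was closest to Cgref1 (0.78), Mia (0.77) and Sdk2 (0.77), and Cst6 to Dcn (0.73), Lum (0.72) and Kazald1 (0.70), of which Dcn and Lum encode matrix proteoglycans of fibroblasts.

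As a share of all UMIs of a gene, barcodes of the mixed macrophage-like class held 60.8% of Ctss in Kif13b-/- and 70.04% in WT, 41.0% and 42.4% of Ctsb, 32.3% and 36.5% of Ctsd, 30.6% and 25.3% of Ctsl, but 24.8% and 17.0% of Ctsk. Fibroblast-like barcodes held 15.9% and 14.3% of Ctsk, and the Crabp2-led cluster 16.1% and 28.2%. The unnamed cluster led by C1qb, Apoe and Trem2 held a further 17.8% of Kif13b-/- and 0.0119% of WT Ctsk UMIs, so the macrophage-like share depends on how that cluster is counted. The unnamed cluster led by Cd5l held 7.03% of Kif13b-/- and 7.93% of WT Ctss UMIs. Of Ctsl UMIs the Cd5l-led cluster held 5.38% and 7.40%.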

How the data were processed

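The deposited matrices hold UMI counts per gene and barcode from Cell Ranger 8.0.1, per the file headers, on mm10, per the submitters' processing notes. The libraries were made with 10x 3' v3.1 chemistry, per the labels' protocols. The 10 genes, marker and gene lists were chosen with earlier results of these data known. Filters required 500 or more UMIs, 300 or more genes and no more than 20% of UMIs from mitochondrial genes. Scrublet in scanpy 1.11.5 set no usable threshold (0 calls), so the highest scores at 0.8% per 1000 barcodes were removed, 428 Kif13b-/- and 3146 WT. Leiden clustering (resolution 1.0, sub-clusters of 3 myeloid clusters at 1.5) used 2000 genes without the 10 genes and both families. A name needed at least 3 raised markers. UMIs were summed per group and library and given as CPM with exact Poisson intervals, ratios with exact conditional binomial intervals and a prior of 0.5, and shares with Clopper-Pearson intervals. A group needed 50 barcodes in each library for a call between genotypes. The ratio within the Clmp-led sub-cluster and the weighting by sub-cluster also used smaller groups, without a call. A zero count allows up to 3 counts. In several groups only some of the 10 genes are named, and neutrophil-like, B cell-like and glial-like barcodes are not described. A gene left unnamed in a group is not thereby unchanged. From each gene list the called genes with most UMIs are named, at most 4. For likeness, the 3 highest correlations are named among genes of at least 50 CPM in 1 sum of 20 barcodes or more. One gene that this rule names is not reported here. Code was tested on simulated counts. Alternatives are given in the closing section.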

Additional observations from a re-analysis of the deposited data

Results flagged for a closer look

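The Kif13b-/- over WT log2 ratio of Ctsl was past the ratio of 1.5 upward in macrophage-like barcodes (0.66) and downward in dendritic cell-like (-0.64) and chondrocyte-like barcodes (-0.62). The ratio of Ctsc was past it upward in fibroblast-like (0.72) and downward in chondrocyte-like barcodes (-0.69). These directions were flagged because they oppose one another between cell groups under the same contrast, and the differences between groups were not tested. Several of them turned or were lost under other settings: macrophage-like Ctsl was -0.11 with mixed clusters counted in, dendritic Ctsl 0.45 at 2000 UMIs and 0.50 with doublets kept, and chondrocyte Ctsc 0.42 at equal weight. In the deep chondrocyte-like cluster alone no gene was lower.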

How the results depend on the processing

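No paired analysis was possible because each genotype has 1 library. Between genotypes, 12 called values were recomputed under 180 alternatives: 121 kept direction and size, and 11 reversed. Of 80 called values between cell groups, 844 of 872 alternatives kept both and 6 reversed. Ctsk in macrophage-like barcodes kept its call under 14 of 17 settings, with ratios from 0.29 (names by marker score) to 1.12. Macrophage-like Ctsl kept it under 8 of 17 and Cst6 under 9 of 15, dendritic Ctsl under 7 of 15, chondrocyte Ctsl and Ctsc under 6 of 15 each and Ctss under 7 of 15, and fibroblast Ctsc under 12 and Cst6 under 11 of 14. Over all barcodes the count of 3 became 1 without the unnamed C1qb-led cluster.

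The count of called genes in the macrophage-like class fell to 1, against 3 as reported, with at most 10% mitochondrial UMIs, at least 2000 UMIs, resolution 2, thinning to 1000 UMIs, at most 0.2% stromal marker UMIs, a ratio of 2, deep sub-clusters only, and without the 5 highest barcodes. Ctsl in that class became -0.11 with mixed clusters counted in, and Cst6 -0.16 at most 0.2% stromal UMIs. The foamy count of 0 became 1 (at least 2000 UMIs, equal weight per barcode, no UMI minimum, sub-cluster resolution 1, without the 5 highest barcodes) or 4 (marker score). In other macrophages 1 became 2 (at least 2000 UMIs, no minimum) or 0 (ratio of 2). In dendritic cells 1 became 0 (at least 2000 UMIs, equal weight, prior of 5, ratio of 2, without the 5 highest), 2 (no minimum) or 3 (marker score), and Ctsl there became 0.50 with doublets kept, 0.45 at 2000 UMIs and 0.41 by marker score. In smooth muscle 0 became 1 (marker score, thinning). In fibroblasts 2 became 1 (10% mitochondrial, resolution 2) or 0 (ratio of 2). In chondrocytes 4 became 1 (genes kept in clustering, doublets kept, marker score, resolution 2, equal weight) or 2 (10% mitochondrial, 2000 UMIs, thinning, ratio of 2, without the shallow cluster). Ctss there became 0.13 with the genes kept in clustering, 1.12 at 10% mitochondrial UMIs and 1.08 without the shallow cluster, and Ctsc 0.042 with doublets kept, 0.42 at equal weight and 0.30 thinned. In the Crabp2-led cluster 1 became 2 (equal weight, thinning) or 0 (at least 2000 UMIs). In that last setting the matched cluster shared 689 of its 1586 barcodes and had 46.2 CPM of Cst6 in Kif13b-/- and 45.3 CPM in WT, while the reported cluster cut to barcodes of at least 2000 UMIs had 154.0 and 68.7 CPM. Over smooth muscle, the Kif13b-/- chondrocyte count of 7 became 4 when thinned, chondrocyte Ctss -0.052 in Kif13b-/- by marker score, and chondrocyte Ctsc 0.54 (equal weight) and 0.030 (thinned) in Kif13b-/- and 0.11 (equal weight) in WT. Crabp2-led Ctsc in Kif13b-/- became 0.062 and Ctss in WT -0.070 with doublets kept. Beyond what the settings' construction shows, the cause was not tested.

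Limits are set by 1 library per genotype, a deeper Kif13b-/- library with fewer barcodes, groups of under 100 barcodes for several states, and free RNA of abundant genes such as Cst3. Settings on resolution 1, shared barcodes, the 5 highest barcodes, deep sub-clusters, the WT mix, the shallow cluster and the unnamed C1qb-led cluster were chosen after seeing the data.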

Other observations

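The unnamed cluster of 1288 Kif13b-/- and 4 WT barcodes held 29.6% of all Ctsz, 27.2% of all Ctsd and 24.1% of all Cst3 UMIs of the Kif13b-/- library. It holds 18.7% of that library's barcodes and 18.1% of its UMIs, so values over all barcodes include it and values by cell group do not. Its leading genes include C1qb, Apoe, Trem2 and Ctsz. In a cluster led by cycling genes such as Cenpf and Ube2c (46 Kif13b-/- and 258 WT barcodes), 1 Kif13b-/- barcode held 534 of 607 Ctsk UMIs. A sub-cluster of 9 Kif13b-/- and 19 WT barcodes led by genes of mature dendritic cells, too small for a comparison, had 4853 and 6158 CPM of Cst3.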
